A study of Mus musculus with 23 samples.

Results

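The genes of cholesterol and fatty acid synthesis were followed across 5 p53 genotypes in mouse embryonic fibroblasts. The list held 32 genes grouped by function. They were the enzymes that build cholesterol, the proteins that regulate or carry sterols, and the enzymes and activator of fatty acid synthesis. The list was drawn up with earlier results of these data known, so counts of called genes in it are descriptions. Each gene was read from its probe set with the highest mean, and 31 of the 32 were measured, among 15266 genes tested; Acat2, a cytosolic thiolase gene, was not analysed here. Of the 31, 22 formed a sterol branch (17 enzymes and 5 regulators or carriers) and 9 formed a fatty acid branch. All 31 passed the filter on low values.

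The series comprised 23 arrays of fibroblasts that all carried retroviral H-Ras V12, an oncogene that drives senescence in fibroblasts with wild-type p53 but not in those without p53. The 3 knock-in alleles of p53 changed its transactivation domains, the parts of the protein that recruit the transcription machinery. The 25,26 group (n = 5) carried the p53 LSL-25,26 allele, altered in the first domain, with Adeno-Cre. The 53,54 group (n = 3) carried LSL-53,54 with Adeno-Cre, altered in the second domain, and the QM group (n = 3) carried LSL-QM with Adeno-Cre, altered in both. The WT group (n = 6) joined 3 arrays of p53 LSL-WT cells with Adeno-Cre (replicates 1 to 3) and 3 arrays of WT cells with Adeno-Cre (replicates 4 to 6). The Null group (n = 6) joined 3 arrays of LSL-WT cells with Adeno-Empty, in which the silencing LSL cassette stayed in place (replicates 1 to 3), and 3 arrays of p53 Null cells with Adeno-Cre (replicates 4 to 6). Cells came from the 129/Sv strain or a 129/Sv/C57BL6 mixed background. The 129/Sv strain gave 4 of the 5 25,26 arrays, 1 of the 3 53,54 arrays, 2 of the 3 QM arrays, 3 of the 6 WT arrays and 4 of the 6 Null arrays. Each sample title ends in a number, here called the title number, which arrays of different groups share. It equals the replicate number except in WT replicates 4 to 6 (title numbers 1 to 3) and Null replicates 4 to 6 (title numbers 2 to 4), and 53,54 has replicates 2 to 4. Arrays of the same title number deviated together, so calls gained or lost in a fit with that number as a block are given beside each comparison. The share of all genes called under the block is given with them. The genotype label of WT replicate 6 names the LSL-WT allele although its title does not, and the label of Null replicate 6 adds the word knock-in. The series calls the samples biological, but whether they came from separate embryos or cultures is not stated, so p-values measure the spread between these samples.

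The p53 targets Cdkn1a and Mdm2 served as a check of the labels. Cdkn1a, the cyclin-dependent kinase inhibitor, had log2 levels of 11.58 to 12.33 in 25,26, 13.22 to 13.91 in 53,54, 10.64 to 11.18 in QM, 13.33 to 14.09 in WT and 10.25 to 11.75 in Null. Mdm2, the ubiquitin ligase of p53, lay at 11.36 to 11.88 in 25,26, 12.81 to 13.07 in 53,54, 10.17 to 10.38 in QM, 12.60 to 13.65 in WT and 10.27 to 10.44 in Null. All 10 fibroblast markers passed the filter on low values, and 4 of them fell in WT against Null, where 11.8% of all genes tested fell. Of 6 epithelial markers 3 rose in 53,54 and 3 in WT, where 9.22% and 10.9% of all genes tested rose against Null. Their summed intensities were 3342 to 7414 in 25,26, 5289 to 6734 in 53,54, 3458 to 4769 in QM, 4397 to 7479 in WT and 1839 to 4312 in Null. Of 5 tested macrophage markers 2 rose in 53,54 and 1 in WT. The 6 on the array had sums of 565 to 724 in 25,26, 865 to 982 in 53,54, 448 to 579 in QM, 458 to 913 in WT and 468 to 592 in Null. The part of these markers in the results on lipid genes was not tested. The proliferation genes, a list of 9 measured mitotic genes, had summed intensities of 7404 to 14889 in 25,26, 3180 to 7498 in 53,54, 16538 to 20005 in QM, 2329 to 8212 in WT and 17028 to 20642 in Null. They were lowest in WT and 53,54, where both lipid branches were lowest too, and their part was not tested either.

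Cholesterol is made from acetyl-CoA through mevalonate, isoprenoids, squalene and lanosterol. The pathway is switched on by SREBP-2, the product of Srebf2, a transcription factor held in the endoplasmic reticulum. When sterols are low, the escort protein Scap carries SREBP-2 to the Golgi for cleavage. When sterols are high, the Insig proteins hold Scap back. SREBP-1, the product of Srebf1, acts in the same way on the genes that make, elongate and desaturate fatty acids. In mouse cells p53 has been reported to induce the cholesterol exporter Abca1 and to restrain SREBP-2 processing.

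SREBP proteins bind sterol response elements beside CCAAT boxes, which recruit the factor NF-Y. Promoter sequences of RefSeq (build GRCm38.p6) were found for 25 of the 32 genes, 24 of them measured, and the 250 bases before each start were searched on both strands for 3 motifs: CCAAT, the sterol response element core TCACNCCAC, and the E-box CACGTG, which reads the same on both strands. CCAAT was present in 17 of 18 measured sterol branch genes with a sequence (94.4%), in 2 of 6 fatty acid genes (33.3%) and in 10133 of all 27025 genes (37.5%). The sterol response element core was present in 1 of 18 sterol branch genes (Hmgcs1), in 0 of 6 fatty acid genes and in 1.22% of all genes. The E-box was present in 5 of 18, 0 of 6 and 6.86%. A match is a description of letters in the window and does not show that a factor binds there.

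The promoters of 4 genes are shown, 5′ to 3′ on the strand of the gene, because their genes carry the main results: an early and a late cholesterol enzyme, and 2 genes of the fatty acid branch with different promoters. Capitals mark CCAAT on either strand (ATTGG on the printed strand) and, in Hmgcs1, the sterol response element core. The windows are Hmgcs1 at chr13:119690101-119690350 (plus strand), Lss at chr10:76531355-76531604 (plus strand), Fasn at chr11:120824548-120824797 (minus strand) and Elovl6 at chr3:129532136-129532385 (plus strand).
Hmgcs1: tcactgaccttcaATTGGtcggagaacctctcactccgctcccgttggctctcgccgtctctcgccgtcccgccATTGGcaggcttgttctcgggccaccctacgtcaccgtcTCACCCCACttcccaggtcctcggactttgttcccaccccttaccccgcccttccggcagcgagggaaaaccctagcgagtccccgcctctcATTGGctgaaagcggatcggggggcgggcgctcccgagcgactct
Lss: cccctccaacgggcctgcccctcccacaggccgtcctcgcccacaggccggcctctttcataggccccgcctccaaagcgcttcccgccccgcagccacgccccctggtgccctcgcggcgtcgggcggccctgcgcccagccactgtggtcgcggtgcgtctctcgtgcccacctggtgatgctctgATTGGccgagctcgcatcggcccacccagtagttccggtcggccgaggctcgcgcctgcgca
Fasn: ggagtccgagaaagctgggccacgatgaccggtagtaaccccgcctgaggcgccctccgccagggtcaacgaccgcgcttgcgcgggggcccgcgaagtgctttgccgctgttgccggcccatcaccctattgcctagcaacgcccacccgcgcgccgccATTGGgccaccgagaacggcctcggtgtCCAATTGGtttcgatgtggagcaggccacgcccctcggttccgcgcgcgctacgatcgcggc
Elovl6: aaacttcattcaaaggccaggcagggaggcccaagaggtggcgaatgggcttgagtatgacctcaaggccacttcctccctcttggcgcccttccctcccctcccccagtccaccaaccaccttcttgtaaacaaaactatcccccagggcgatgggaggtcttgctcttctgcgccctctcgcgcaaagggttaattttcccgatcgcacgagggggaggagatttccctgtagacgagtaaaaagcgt
Hmgcs1 held 3 CCAAT boxes and 1 core, whose first letter stood 137 bases before the start. Lss held 1 CCAAT box, 62 bases before the start. Fasn held 3 CCAAT boxes, of which 2 overlapped on opposite strands, and Elovl6 held none of the motifs.

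WT was set against Null to see how the presence of p53 changed these genes in H-Ras V12 cells, and both branches were lower in WT. In the sterol branch 12 of 22 genes fell and 1 rose, and in the fatty acid branch 7 of 9 fell, where 22.7% of all genes tested changed in either direction, 11.8% fell and 10.9% rose (limma, Benjamini-Hochberg adjusted p under 0.05 over all genes). The median log2 difference, WT minus Null, was -0.49 in the sterol branch and -0.55 in the fatty acid branch, against 0.00 over all genes tested. In bulk samples fewer cells of a type and less RNA per cell cannot be told apart.

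**Figure D1:**
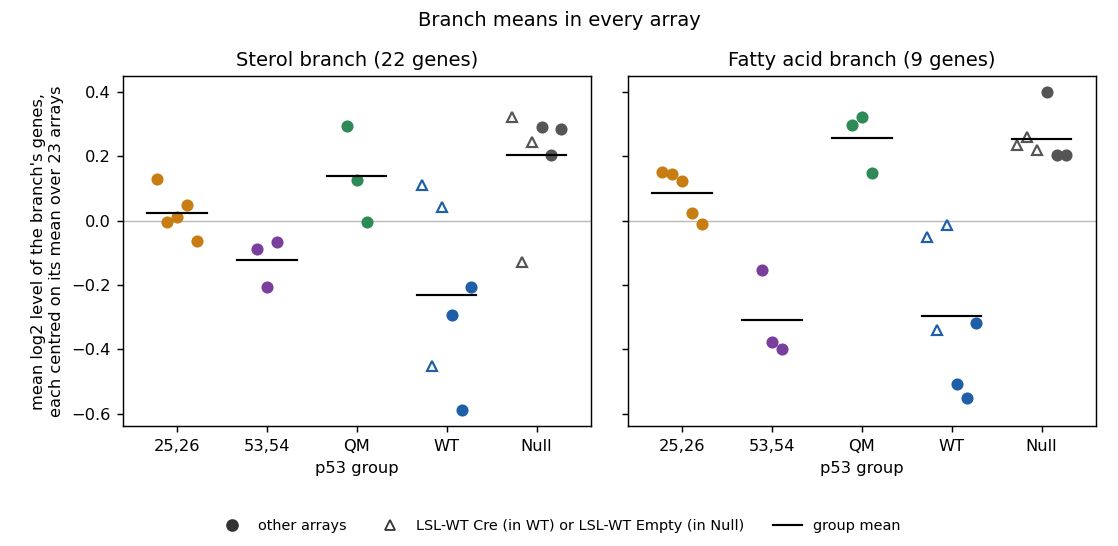
Mean log2 level of the sterol branch (left) and the fatty acid branch (right) in each of 23 arrays, after each gene was centred on its mean over all arrays, by p53 group; open triangles are LSL-WT cells and lines are group means. In the fatty acid branch all WT arrays (-0.55 to -0.01) and all 53,54 arrays (-0.40 to -0.15) lie below all Null arrays (0.20 to 0.40); in the sterol branch WT (-0.59 to 0.11) and Null (-0.13 to 0.32) overlap.

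Of the 6 early enzymes, which lead to isoprenoids, 5 fell in WT. Hmgcs1, the cytosolic HMG-CoA synthase, had log2 levels of 11.40 to 12.50 in WT (median 11.96), against 12.24 to 12.99 in Null (median 12.79). The ranges met, because 2 WT arrays, replicates 1 and 3, both LSL-WT, stood above the lowest Null array. The difference was -0.76 ± 0.16 (log2 ± SE, n = 6 and 6, adjusted p = 0.00120). Mvk, mevalonate kinase, differed by -0.13 ± 0.10 (95% interval -0.35 to 0.08), and under a block for the title number it was called (adjusted p = 0.0255). That block called 33.8% of all genes tested.

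Pmvk, phosphomevalonate kinase, fell by 0.73 (adjusted p = 0.00900), Mvd, mevalonate diphosphate decarboxylase, by 0.58 (adjusted p = 0.00131) and Idi1, the isopentenyl diphosphate isomerase, by 0.75 (adjusted p = 0.00500). Mvd had log2 levels of 8.19 to 8.64 in WT (median 8.37) and 8.79 to 9.27 in Null (median 8.90), with no overlap. Fdps, farnesyl diphosphate synthase, spread widely: it ran from 10.84 to 12.71 in WT (median 11.98), against 12.17 to 13.20 in Null (median 12.96). It fell by 0.89 (SE 0.23, adjusted p = 0.00763), and with the mean of all its probe sets the adjusted p was 0.0529.

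The enzymes that commit the pathway to sterols followed. Fdft1, squalene synthase, differed by -0.47 ± 0.17 (adjusted p = 0.0552, and 0.0160 under the title-number block). Sqle, squalene epoxidase, was at 11.14 to 11.48 in WT (median 11.19), against 11.56 to 11.97 in Null (median 11.73). No WT array reached any Null array, and Sqle fell by 0.48 (SE 0.11, adjusted p = 0.00276). Lss, lanosterol synthase, was at 9.22 to 10.12 in WT (median 9.53), against 10.20 to 10.77 in Null (median 10.31), again without overlap. It fell by 0.82 (SE 0.17, adjusted p = 0.00100).

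Of the enzymes that turn lanosterol into cholesterol, 3 of 8 fell. Cyp51, the lanosterol demethylase, fell by 0.52 (adjusted p = 0.0142), Nsdhl, a sterol dehydrogenase, by 0.50 (adjusted p = 0.0120) and Dhcr7, the reductase of a final step, by 0.57 (adjusted p = 0.00841). Tm7sf2, a sterol reductase, differed by -0.37 ± 0.15 and Ebp, a sterol isomerase, by -0.17 ± 0.15, and each was called under the title-number block (adjusted p = 0.0357 and 0.00350). Msmo1, a methylsterol oxidase, differed by -0.14 ± 0.13 (95% interval -0.41 to 0.14), Hsd17b7, a sterol ketone reductase, by -0.31 ± 0.19 (-0.69 to 0.08) and Sc5d, a sterol desaturase, by -0.04 ± 0.19 (-0.43 to 0.36). Nsdhl and Ebp lie on the X chromosome. The level of Xist, the transcript of the inactive X, was above log2 8 in 4 of 6 WT and 1 of 6 Null arrays, and with it in the model the calls of Cyp51, Nsdhl, Insig1 and Insig2 ended while the other calls stayed.

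Among regulators and carriers, Stard4, a cytosolic sterol carrier, showed the clearest fall. It was at 9.46 to 9.92 in WT (median 9.73), against 10.16 to 10.86 in Null (median 10.49), and no arrays overlapped. It fell by 0.82 (SE 0.15, adjusted p = 4.10e-04). Insig1, the sterol-dependent retention protein and itself an SREBP target, fell by 0.42 (adjusted p = 0.0153). Its relative Insig2 rose by 0.23 (SE 0.08, adjusted p = 0.0475), a call that ended without any one of 8 of the 12 WT and Null arrays (WT replicates 2 to 5 and Null replicates 1, 2, 3 and 5). Srebf2 was at 9.04 to 10.29 in WT (median 9.85) and 10.04 to 10.88 in Null (median 10.36), and Scap at 11.28 to 12.05 in WT (median 11.54) and 10.77 to 11.88 in Null (median 11.19). Both overlapped. Srebf2 differed by -0.67 ± 0.24 (adjusted p = 0.0521) and Scap by 0.37 ± 0.17 (adjusted p = 0.118), and under the title-number block the adjusted p was 0.00150 and 0.0332. The estimates for the parts of the groups differed in size. Tested between the parts, neither gene was called without a block, and both were called under the title-number block. In LSL-WT cells, Cre minus Empty, Srebf2 differed by -0.33 and Scap by 0.74. Between WT Cre and Null Cre the differences were -1.01 and 0.01. A further probe set of Srebf2 differed by -0.24.

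In the fatty acid branch Elovl6, the elongase of saturated acyl chains, had the largest difference of the 31 genes. It was at 9.70 to 10.95 in WT (median 10.31), against 11.26 to 11.53 in Null (median 11.46). No WT array reached any Null array. It fell by 1.06 (SE 0.16, adjusted p = 4.47e-05), and its other probe sets differed by -1.11 and -0.46.

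Fasn, fatty acid synthase, was at 11.44 to 11.79 in WT (median 11.62) and 11.87 to 12.26 in Null (median 11.98), a fall of 0.41 (adjusted p = 5.67e-04). Acaca, acetyl-CoA carboxylase, was at 9.22 to 9.83 in WT (median 9.42) and 9.84 to 10.15 in Null (median 10.07), a fall of 0.59 (adjusted p = 3.05e-04). Neither gene's groups overlapped. The stearoyl-CoA desaturase genes Scd1 and Scd2 fell by 0.55 (adjusted p = 0.00194) and 0.43 (adjusted p = 4.81e-04), and the call of Scd2 ended with the mean of its probe sets (adjusted p = 0.231). Fads1 was at 10.42 to 11.12 in WT (median 10.79) and 11.18 to 12.10 in Null (median 11.46), and Fads2 at 9.32 to 10.34 in WT (median 9.78) and 10.39 to 10.82 in Null (median 10.44), both without overlap. These polyunsaturated fatty acid desaturase genes fell by 0.77 (adjusted p = 0.00254) and 0.72 (adjusted p = 0.00171). Acly, ATP citrate lyase, which supplies cytosolic acetyl-CoA, differed by -0.22 ± 0.14 (adjusted p = 0.30, and 2.50e-04 under the title-number block), and Srebf1, the branch's activator, by -0.19 ± 0.10 (95% interval -0.41 to 0.02).

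WT and Null arrays did not overlap, with WT lower, for 4 of 22 sterol branch genes (Mvd, Sqle, Lss and Stard4) and 6 of 9 fatty acid genes (Fasn, Acaca, Scd2, Elovl6, Fads1 and Fads2), where 5.16% of all genes tested had WT below Null without overlap. On the scale of branch means the fatty acid branch averaged -0.30 ± 0.22 in WT and 0.25 ± 0.07 in Null (SD, n = 6 each). The sterol branch averaged -0.23 ± 0.27 in WT and 0.20 ± 0.17 in Null. The lowest Null array of the sterol branch was replicate 2 (-0.13), and the lowest WT arrays of that branch were replicates 5 (-0.59) and 2 (-0.45). All 3 carry title number 2, as does Null replicate 4, which stood at 0.29 in the sterol branch.

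**Figure D2:**
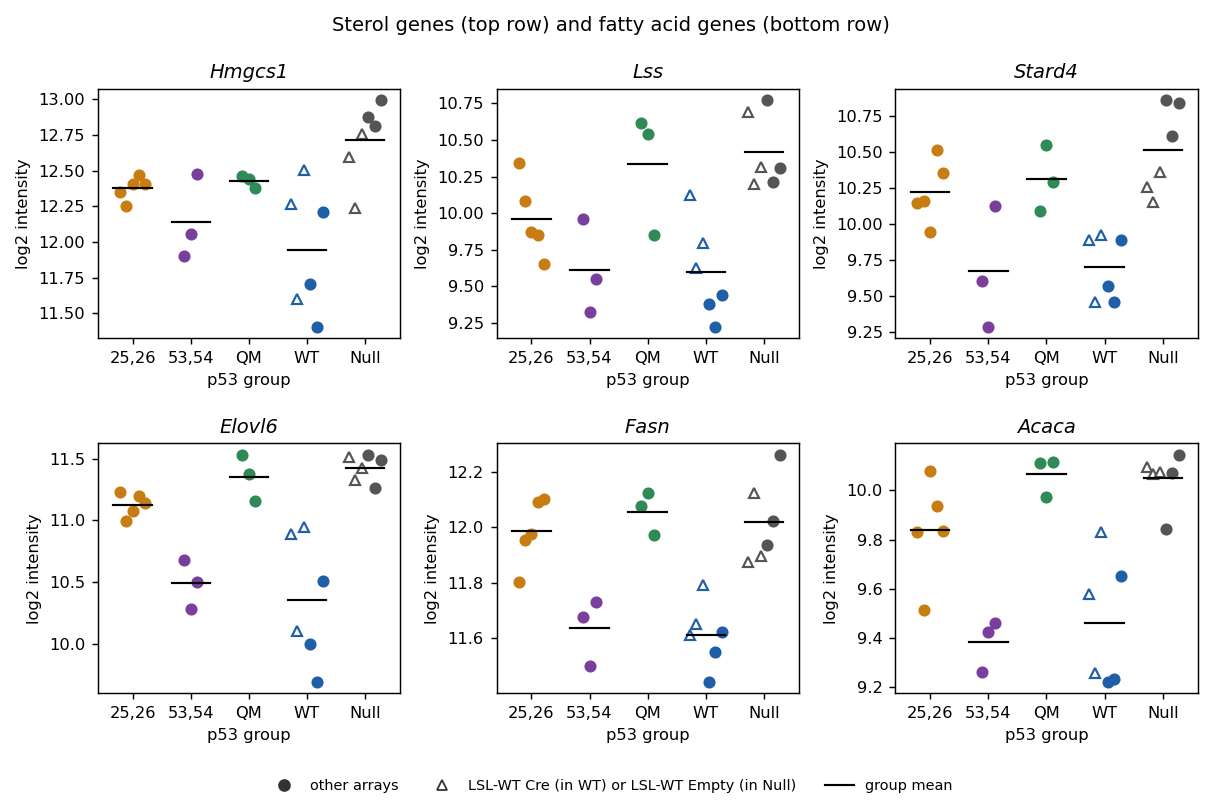
Log2 intensity of 3 sterol genes (top: Hmgcs1, Lss, Stard4) and 3 fatty acid genes (bottom: Elovl6, Fasn, Acaca) in each of 23 arrays by p53 group; open triangles are LSL-WT cells and lines are group means. In Lss, Stard4, Elovl6, Fasn and Acaca all WT arrays lie below all Null arrays; in Elovl6 the 25,26 arrays (11.00 to 11.23) lie between WT and Null, and QM arrays (11.16 to 11.53) overlap Null.

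Both strains gave the same sign of the branch means at different size, and among single genes Hsd17b7 did not (-0.66 among 129 arrays and 0.04 among mixed arrays). The mean of the sterol branch, WT minus Null, was -0.61 among 129 arrays (n = 3 and 4) and -0.30 among mixed arrays (n = 3 and 2), and that of the fatty acid branch was -0.73 and -0.35. Both mixed Null arrays were LSL-WT Empty, and all Null Cre arrays were 129. In these means the sizes by strain and by kind of cell therefore cannot be fully told apart. Proliferation genes moved likewise, by -2.30 among 129 arrays and -1.43 among mixed arrays. Without the arrays of title number 2, a choice made after seeing the data, the sterol branch differed by -0.35 and the fatty acid branch by -0.44 (n = 4 and 4), and the calls of Insig1, Insig2 and Fads2 ended. All WT and Null arrays of title number 2 were of the 129 strain, so that choice removed 129 arrays only.

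Removal of the cassette was compared within one allele, LSL-WT cells with Cre against LSL-WT cells with Empty virus. The virus changed together with the cassette, so Cre itself and the return of p53 cannot be told apart here. Elovl6 and Acaca were lower and Scap, the SREBP escort, was higher in Cre cells. In the fit without a block, which ignores the pairing of these arrays, no other gene of either branch was called. There 1 of 22 sterol branch genes rose and 2 of 9 fatty acid genes fell, where 11.7% of all genes tested changed, 4.8% upwards and 6.89% downwards. The fit with the title-number block, given below, called more genes of both branches and more of all genes tested. Elovl6 was at 10.89, 10.11 and 10.95 in LSL-WT Cre, against 11.51, 11.33 and 11.42 in LSL-WT Empty, in the order of title numbers 1, 2 and 3. The Cre arrays were all below the Empty arrays, and the difference was -0.77 ± 0.20 (adjusted p = 0.0129). Acaca fell by 0.52 (SE 0.15, adjusted p = 0.0269) and Scap rose by 0.74 (SE 0.22, adjusted p = 0.0293). Leaving out single arrays ended these calls of the fit without a block. That of Scap ended without WT replicates 1 or 2 or Null replicates 1 or 3. That of Acaca ended without WT replicates 1 or 2 or Null replicates 1, 2 or 3, and that of Elovl6 without WT replicate 2 or Null replicate 1. With limma under the title-number block, which pairs these arrays, the adjusted p was 0.00866 for Elovl6, 0.00120 for Acaca and 9.81e-05 for Scap.

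Cre arrays lay below Empty arrays without overlap in 4 sterol branch genes (Mvd, Sqle, Lss and Stard4) and 6 fatty acid genes, against 14.4% of all genes tested, and above them in 2 (Insig2 and Scap), against 11.7%. Under the title-number block the counts were larger, as was the share of all genes tested that changed (26.7%). Then 7 sterol branch genes fell (Pmvk, Mvd, Idi1, Sqle, Lss, Tm7sf2 and Stard4) and 1 rose, and 6 fatty acid genes fell (Fasn, Acaca, Acly, Elovl6, Fads1 and Fads2). By title number 1, 2 and 3 the difference of Cre minus Empty was -0.21, -0.32 and -0.20 in the sterol branch mean and -0.29, -0.60 and -0.23 in the fatty acid branch mean. Of the 22 sterol branch genes, 16 were lower in Cre in all 3 pairs and 4 higher, and of the 9 fatty acid genes, 8 were lower and 0 higher. The proliferation genes differed by -1.46, -3.06 and -1.52 in the same pairs. The pair with title number 2 was farthest apart for them and for the means of both branches.

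**Figure D3:**
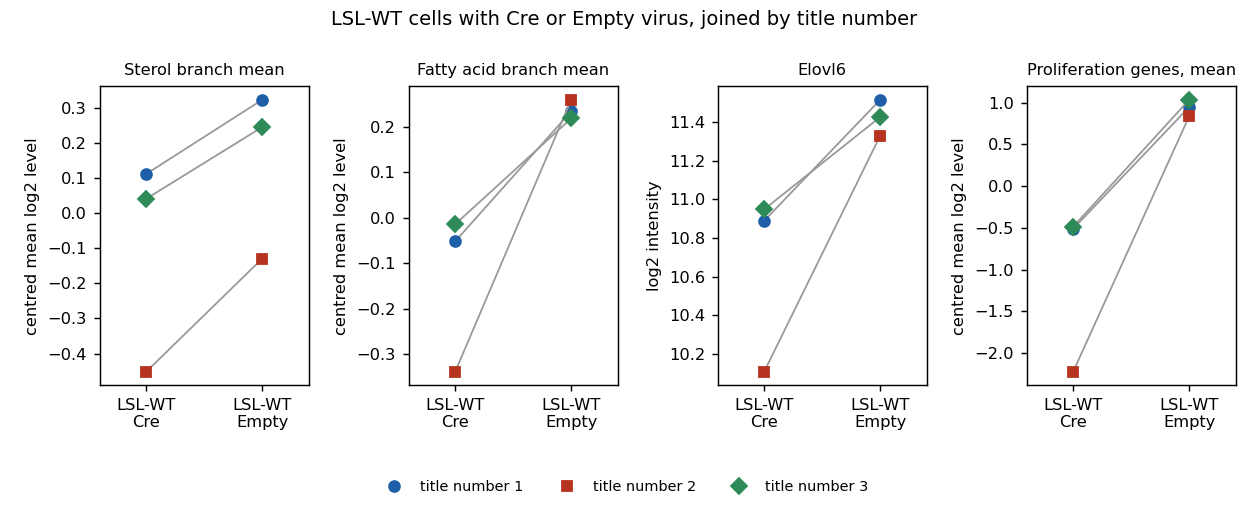
Centred mean log2 level of the sterol branch, the fatty acid branch and the proliferation genes, and log2 intensity of Elovl6, in LSL-WT cells with Cre (left of each panel) and Empty virus (right), with lines joining arrays of 1 title number. Every line is lower on the Cre side; in the sterol branch the pair of title number 2 lies below the other pairs on both sides (-0.45 in Cre and -0.13 in Empty).

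The cells whose titles name no cassette, WT Cre against Null Cre, were compared in the same way, and both had Adeno-Cre. The genotype label of WT replicate 6 names the LSL-WT allele, so its place here rests on its title. All Null Cre arrays were of the 129 strain, whereas WT Cre included a mixed array, WT replicate 6. There 13 of 22 sterol branch genes and 7 of 9 fatty acid genes fell, where 15.9% of all genes tested changed and 7.19% fell, with medians of -0.69 and -0.68. WT Cre lay below Null Cre without overlap in 14 and 8 genes, against 12.6% of all genes tested. Hmgcs1 was at 11.71, 11.40 and 12.21 in WT Cre, against 12.87, 12.81 and 12.99 in Null Cre, without overlap. It fell by 1.12 (SE 0.21, adjusted p = 0.00104). Fdps fell by 1.27 (adjusted p = 0.00780), Stard4 by 1.13 (adjusted p = 4.75e-04), Elovl6 by 1.35 (adjusted p = 1.09e-04) and Scd2 by 0.68 (adjusted p = 2.17e-05). Fdft1 and Srebf2, not called over all WT and Null arrays, fell by 0.87 (adjusted p = 0.0106) and 1.01 (adjusted p = 0.0328). Without WT replicate 5 the count of the sterol branch was 7, and with Xist level in the model it was 5. The title-number block, for which there are only 2 pairs here, called 16 sterol branch genes (Hsd17b7, Ebp and Insig1 gained) and all 9 fatty acid genes (Srebf1 and Acly gained), where it called 28.1% of all genes tested.

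The difference between the LSL-WT part and the part whose titles name no cassette was itself tested. With limma 0 of the 31 genes differed between them, where 0.00655% of all genes tested did, and 6 had an unadjusted p under 0.05 (4 in the sterol branch and 2 in the fatty acid branch). The nearest to a call were Scd2, with a difference of 0.49 (95% interval 0.24 to 0.74, adjusted p = 0.177), and Fdft1, with 0.79 (0.13 to 1.44, adjusted p = 0.505). Under the title-number block 3 were called: Srebf2 (0.85, adjusted p = 0.0339), Scap (0.81, adjusted p = 0.0238) and Scd2 (0.47, adjusted p = 0.0469), where 1.6% of all genes tested were.

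The mutants were set against Null to ask how much of the p53 effect each transactivation domain carries. Against the same 6 Null arrays, 13 genes of the 2 branches were called in 53,54 and none in 25,26 or QM.

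The 53,54 arrays, altered in the second domain, had 7 of 9 fatty acid genes lower, and 5 of 22 sterol branch genes lower with 1 higher, where 19.6% of all genes tested changed, 10.3% downwards and 9.22% upwards. The median log2 difference was -0.34 in the sterol branch and -0.54 in the fatty acid branch, against -0.02 over all genes tested. Elovl6 was at 10.68, 10.29 and 10.51 in 53,54, below all Null arrays (11.26 to 11.53), and fell by 0.93 (SE 0.20, adjusted p = 0.00139). Acaca was at 9.26, 9.43 and 9.46 in 53,54, below all Null arrays (9.84 to 10.15), and fell by 0.67 (SE 0.13, adjusted p = 6.76e-04).

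Fads1, Fads2, Scd1, Fasn and Scd2 fell by 0.86, 0.78, 0.54, 0.38 and 0.34 in 53,54, with adjusted p between 0.00578 and 0.0187. All 7 called fatty acid genes and 4 sterol branch genes (Mvk, Mvd, Lss and Stard4) had no overlap with Null, against 10.4% of all genes tested. In the sterol branch Stard4 was at 9.61, 9.29 and 10.13 in 53,54, against 10.16 to 10.86 in Null. It fell by 0.84 (SE 0.19, adjusted p = 0.00222), and its 53,54 replicate 4 array lay just below the lowest Null array. Lss fell by 0.81 (adjusted p = 0.00692), Mvd by 0.60 (adjusted p = 0.00600), Hmgcs1 by 0.57 (adjusted p = 0.0455) and Cyp51 by 0.56 (adjusted p = 0.0374), and Scap rose by 0.58 (adjusted p = 0.0474).

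Several of these calls rested on single arrays. Without 53,54 replicate 3 the sterol branch count was 2 and the fatty acid count 3, and Lss, Fasn, Scd1, Scd2 and Fads1 were no longer called. The calls of Hmgcs1, Cyp51 and Scap ended in 7, 8 and 6 of the 9 ways to leave out 1 array, and the sterol branch count was 3 without 53,54 replicate 2 or Null replicates 1, 3, 5 or 6. Under the title-number block the sterol branch count was 10 lower and 1 higher, where 31.8% of all genes tested changed. That block added Pmvk (adjusted p = 9.36e-04), Idi1 (adjusted p = 0.0109), Fdps (adjusted p = 0.0231), Sqle (adjusted p = 0.0257) and Ebp (adjusted p = 0.0407), and Acly in the fatty acid branch (adjusted p = 6.12e-05).

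In the 25,26 arrays, altered in the first domain, limma called 0 of 22 sterol branch genes and 0 of 9 fatty acid genes against Null, where 4.3% of all genes tested changed. At an unadjusted p under 0.05, 3 sterol branch genes were lower (Mvd, Lss and Cyp51) and 0 fatty acid genes. Mvd was at 8.87, 8.81, 8.45, 8.47 and 8.15 in 25,26, against 8.79 to 9.27 in Null, with overlap in 2 arrays. Its difference was -0.44 ± 0.13 (adjusted p = 0.0592). Elovl6 was at 11.23, 11.00, 11.08, 11.20 and 11.14 in 25,26, all just below the lowest Null array (11.26), with a difference of -0.30 (95% interval -0.65 to 0.05). It was the single gene of both branches without overlap, against 1.81% of all genes tested.

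The branch medians in 25,26 were -0.18 for sterols and -0.19 for fatty acids, against 0.01 over all genes tested. For Fasn the 95% interval, -0.20 to 0.14, lay above the difference of -0.41 seen in WT, whereas for Mvd, -0.70 to -0.17, it included that of -0.58. Both comparisons use the same Null arrays, and the WT differences have intervals of their own (-0.57 to -0.24 for Fasn), so this is no test of 25,26 against WT. Under the title-number block Pmvk (-0.37, adjusted p = 0.0399), Mvd (-0.34, adjusted p = 0.0391) and Cyp51 (-0.46, adjusted p = 0.0469) fell, where 14.2% of all genes tested changed. Without 25,26 replicate 1, 25,26 replicate 2 or Null replicate 2, 1 sterol branch gene was called.

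In the QM arrays, altered in both domains, limma called 0 of 31 genes against Null, and 0 had an unadjusted p under 0.05; 0.0131% of all genes tested were called. The medians were -0.08 for the sterol branch and 0.02 for the fatty acid branch. Elovl6 was at 11.53, 11.37 and 11.16 in QM, within or just below the Null range, and differed by -0.07 ± 0.20 (95% interval -0.48 to 0.34). Hmgcs1 was at 12.46, 12.44 and 12.38 in QM, between the lowest and the median Null array, and differed by -0.28 ± 0.20 (95% interval -0.69 to 0.12). For Fasn the difference was 0.04 (95% interval -0.16 to 0.24), an interval that excludes the difference of -0.41 seen in WT. The WT difference has its own interval (-0.57 to -0.24) and rests on the same Null arrays, so this is no test of QM against WT.

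**Figure D4:**
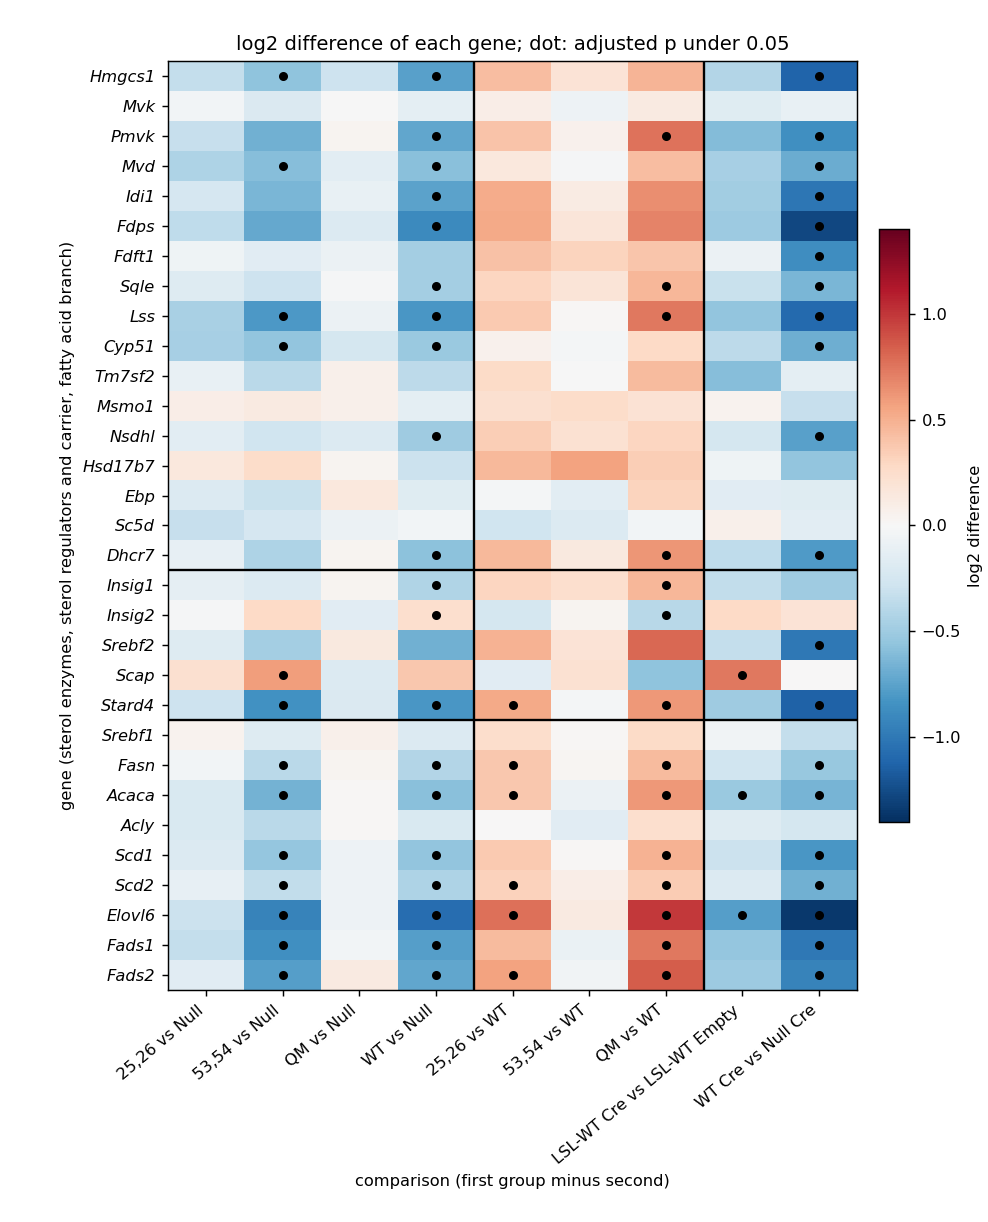
Log2 difference (colour, first group minus second) of each of 31 genes in 9 comparisons; black dots mark an adjusted p under 0.05, and lines separate sterol enzymes, sterol regulators and carrier, and the fatty acid branch. The columns of 53,54 and WT against Null are mostly blue, QM against Null is pale without dots, and 25,26 against Null is pale blue without dots.

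Set against WT, the mutants share these 6 arrays, so the values below are given for each comparison by itself. In 25,26 5 of 9 fatty acid genes and 1 of 22 sterol branch genes were higher than in WT, where 7.7% of all genes tested changed and 4.34% were higher. Elovl6 exceeded WT by 0.77 (SE 0.17, adjusted p = 0.00668), with all 25,26 arrays above all WT arrays (9.70 to 10.95). Fasn was at 11.80, 11.95, 11.98, 12.09 and 12.10 in 25,26, against 11.44 to 11.79 in WT, without overlap, and was higher by 0.37 (adjusted p = 0.00693). Stard4 was also above WT without overlap, against 2.21% of all genes tested, and Insig2 below it, against 2.22%.

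Fads2, Acaca and Scd2 were higher in 25,26 by 0.57, 0.38 and 0.32, and Stard4 by 0.53 (adjusted p between 0.0249 and 0.0466). The fatty acid count lay between 2 and 6 with 1 array left out. It was 2 without 25,26 replicate 1, WT replicate 4 or WT replicate 5, 3 without 25,26 replicates 3, 4 or 5 or WT replicate 2, and 0 without the arrays of title number 2. The call of Stard4 ended without 7 of 11 arrays, so that the sterol branch count was 0 without 25,26 replicates 1, 2, 4 or 5 or WT replicates 2, 4 or 5. It was 4 without WT replicate 1, and 2 without 25,26 replicate 3 or WT replicate 3. Under the title-number block, with 12% of all genes tested called, the call of Stard4 ended (adjusted p = 0.120) and Pmvk, Idi1 and Srebf2 were called. In the fatty acid branch that of Scd2 ended (0.29 ± 0.10, adjusted p = 0.0613), and Acly, Scd1 and Fads1 were called, which made 7.

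In QM 7 of 9 fatty acid genes were higher than in WT, as were 6 of 22 sterol branch genes with 1 lower, where 13.9% of all genes tested changed, 8.16% upwards and 5.76% downwards. QM lay above WT without overlap in 3 sterol branch and 6 fatty acid genes, against 8.76% of all genes tested, and below it in 2 (Insig2 and Scap), against 6.55%. The medians were 0.44 for the sterol branch and 0.49 for the fatty acid branch, against 0.00 over all genes tested. Elovl6 was higher by 0.99 (SE 0.20, adjusted p = 0.00147), Fads2 by 0.85 (adjusted p = 0.00441), Acaca by 0.60 (adjusted p = 0.00290) and Fasn by 0.44 (adjusted p = 0.00309). The sterol branch genes that were higher were Pmvk, Lss, Dhcr7, Stard4, Sqle and Insig1, by 0.76, 0.74, 0.61, 0.61, 0.47 and 0.46. Insig2 was at 9.52, 9.50 and 9.59 in QM, against 9.81 to 10.27 in WT, without overlap. It was lower in QM, with a difference of -0.39 ± 0.10 (adjusted p = 0.0124).

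The sterol count against WT depended on single arrays: it was 1 without QM replicates 1 or 2, 3 without WT replicate 2, 4 without QM replicate 3 or WT replicates 4 or 5, and 11 without WT replicate 3. The fatty acid count was 4 without QM replicate 2. Under the title-number block, with 26.4% of all genes tested called, Acly was gained in the fatty acid branch (adjusted p = 0.00293). In the sterol branch 13 genes were higher and 2 lower, with Hmgcs1, Mvd, Idi1, Fdps, Tm7sf2, Ebp and Srebf2 added as higher and Scap as lower (adjusted p between 0.00515 and 0.0495).

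In 53,54 limma called 0 of 31 genes against WT, where 0.367% of all genes tested changed, and 1 had an unadjusted p under 0.05 (Hsd17b7, 0.57 ± 0.23). The medians were 0.13 for the sterol branch and 0.01 for the fatty acid branch. For Elovl6 the difference was 0.13 (95% interval -0.28 to 0.54), for Fasn 0.02 (-0.18 to 0.22) and for Stard4 -0.03 (-0.41 to 0.36). With 3 arrays against 6 a p above the threshold does not show that the groups are alike.

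The branches were then compared within each array as the sterol branch mean minus the fatty acid branch mean, a description without a test. It averaged -0.06 ± 0.07 in 25,26, 0.19 ± 0.13 in 53,54, -0.12 ± 0.10 in QM, 0.07 ± 0.12 in WT and -0.05 ± 0.18 in Null (SD). WT and Null arrays overlapped in it. In 53,54 all arrays were above zero, because the fatty acid branch (-0.31 ± 0.14) stood lower than the sterol branch (-0.12 ± 0.08). In WT the branch means differed less, at -0.30 ± 0.22 and -0.23 ± 0.27. In both branches 53,54 and WT had the lowest means and QM and Null the highest, with 25,26 between them.

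Genes of lipid handling outside synthesis were counted by lists. Of 16 tested genes of sterol uptake, efflux and storage, 3 rose and 2 fell in WT against Null (31.2%, against 22.7% of all genes tested). Abca1, the cholesterol exporter, was at 9.80 to 10.53 in WT (median 10.08), against 7.95 to 9.29 in Null (median 9.15), without overlap, and rose by 1.23 (SE 0.26, adjusted p = 0.00126). Its partner transporter gene Abcg1 rose by 1.26 (adjusted p = 2.26e-04) and Cyp27a1, a sterol hydroxylase, by 0.68 (adjusted p = 0.00740). Cyp7b1, an oxysterol hydroxylase, differed by -1.88 and Lpl, lipoprotein lipase, by -1.32, and both fell.

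Abca1 was at 10.53, 10.75 and 10.02 in 53,54 and rose there by 1.52 (SE 0.32, adjusted p = 0.00133). In 25,26 it was at 8.44, 9.81, 10.03, 9.46 and 9.18, overlapping the Null arrays, with a difference of 0.47 ± 0.27 (adjusted p = 0.425). In QM it was at 9.44, 8.43 and 8.48, within or just above the Null range. In LSL-WT cells Abca1 rose with Cre by 1.45 (adjusted p = 0.0147).

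Of 9 genes of the isoprenoid side branch, which uses farnesyl diphosphate for ubiquinone and protein prenylation, 1 fell in WT (11.1%, below the 22.7% of all genes called): Coq2, a ubiquinone synthesis gene, by 0.29 (adjusted p = 0.0455). Dhdds, Ggps1 and Zmpste24 differed by -0.27, 0.19 and 0.17 and were not called. Of 17 other genes of lipid synthesis 4 changed (23.5%), a share near the 22.7% of all genes tested. The 2 that rose were Lpin1 (1.03 ± 0.23, adjusted p = 0.00216), the phosphatidate phosphatase lipin 1, and Dgat1 (0.32), an acyltransferase of triglyceride synthesis. In the same list 2 fell, Acsl3, an acyl-CoA synthetase, by 0.58 and Idh1, the NADPH-producing isocitrate dehydrogenase, by 0.41. Lpin1 was at 10.64, 10.19 and 10.01 in 53,54 and rose there by 2.08 (SE 0.28, adjusted p = 1.46e-05).

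Of 11 genes of fatty acid oxidation 5 rose in WT and 0 fell, where 10.9% of all genes tested rose and 11.8% fell. Cpt1c, a carnitine palmitoyltransferase, was at 10.38 to 10.82 in WT (median 10.51), against 8.29 to 9.32 in Null (median 8.45), and rose by 1.93 (SE 0.15, adjusted p = 6.14e-09). Pdk4, the kinase that holds back pyruvate dehydrogenase, rose by 2.75 (SE 0.37, adjusted p = 1.19e-05), the dehydrogenase gene Acadvl by 0.77 (adjusted p = 6.66e-05), Cpt1a by 0.68 (adjusted p = 1.99e-04) and Hadhb, a subunit of the trifunctional protein, by 0.27 (adjusted p = 0.0317). The groups of the first 4 of these did not overlap. In 53,54 6 of the 11 rose, where 9.22% of all genes tested did, with differences of 2.20 for Cpt1c and 2.76 for Pdk4, and in QM limma called 0, with 0 at an unadjusted p under 0.05.

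In 25,26 4 of these oxidation genes rose against Null, where 3.02% of all genes tested rose, and Cyp27a1 rose by 1.38 (adjusted p = 6.36e-05). No gene of the 2 synthesis branches was called there in the fit without a block. Under the title-number block 3 sterol branch genes fell, where 14.2% of all genes tested changed. Oxidation and synthesis genes were not tested against each other. Cpt1c was at 9.50, 10.14, 9.64, 9.55 and 9.59 in 25,26, above all Null arrays (8.29 to 9.32) and below all WT arrays (10.38 to 10.82). It rose by 1.06 (SE 0.16, adjusted p = 1.79e-04). Acadvl rose by 0.70 (adjusted p = 0.00161), Cpt1a by 0.53 (adjusted p = 0.0138) and Etfdh, an electron transfer dehydrogenase named here because the count is small, by 0.41 (adjusted p = 0.00799).

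**Figure D5:**
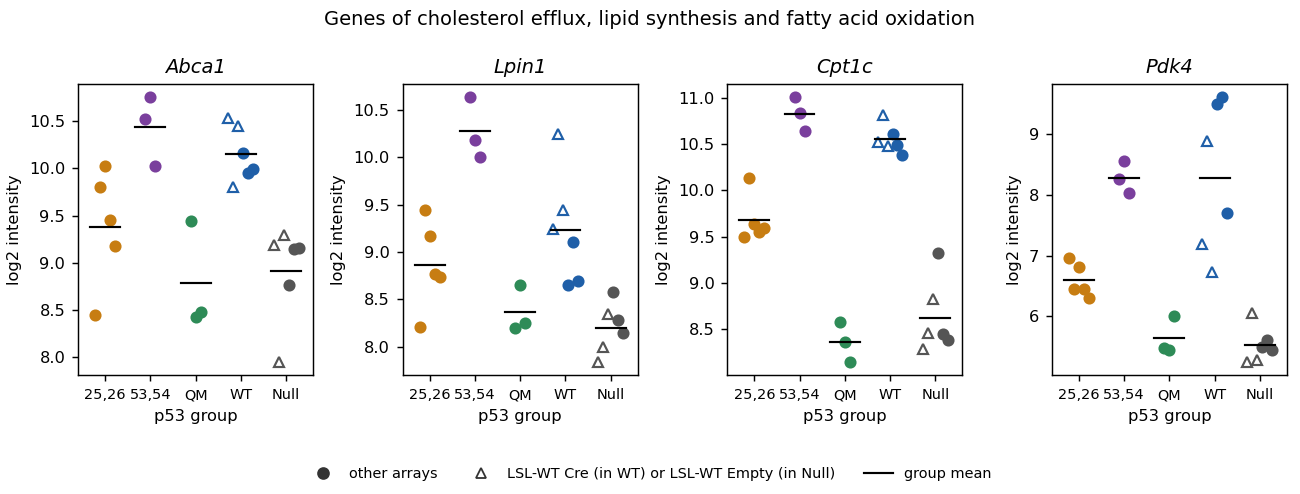
Log2 intensity of Abca1 (cholesterol efflux), Lpin1 (lipid synthesis), Cpt1c and Pdk4 (both from the list of fatty acid oxidation) in each of 23 arrays by p53 group. Open triangles are LSL-WT cells and lines are group means. In all 4 genes WT and 53,54 arrays lie above all Null arrays, QM arrays lie with or close to Null, and 25,26 arrays lie above all Null arrays in Cpt1c and Pdk4.

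Adipocytes, which make much fat, were checked as another source of these transcripts. Adipoq, the defining adipokine, lay between 3.68 and 4.28 in all arrays, below the filter on low values (log2 4.79), and Lep and Cidec did not pass it. The 3 markers that passed (Fabp4, Lpl and Pparg) are not specific to adipocytes. The summed intensity of the 6 measured markers was 1687 to 2513 in 25,26, 1642 to 1922 in 53,54, 1977 to 2470 in QM, 1137 to 1793 in WT and 1567 to 2240 in Null.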

How the data were processed

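RNA of 23 fibroblast samples was hybridised to Affymetrix arrays, 1 array each. The authors deposited a table of linear intensity per probe set (8.548 to 32042.1), made with RMA per the submitters' processing notes; its options are not given in the sources used here. The deposited intensities were taken to log2. Of 45101 probe sets, 64 controls, 932 with several symbols and 9160 not listed in the annotation were left out. For each of 18193 genes the probe set of highest mean was taken, and 22 of the 31 genes described have several. Genes with at least 3 arrays above the 30th percentile (log2 4.79) were tested (15266).

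With limma 3.58.1 (R 4.3.3) a means model was fitted over all 23 arrays, with 5 groups, or with 7 where the WT and Null groups were divided. Moderated two-sided tests were adjusted by Benjamini-Hochberg over all genes tested, at 0.05. Errors are SE of the fit or SD between arrays, intervals cover 95%, and the number of arrays limits the precision. The method was tested on simulated data. The 31 genes, the other lists and the genes named from them (the 4 with the largest moderated t in WT against Null, and Abca1) were chosen with earlier results of these data known. Lpl, Hadhb and Etfdh were named outside that rule, after their values were seen.

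Title numbers were checked for pairing: deviations from the means of the 7 groups correlated above 0.1 in every same-number pair of 8 comparisons (lowest 0.131), and at 0.72 or above for the LSL-WT pairs. WT Cre and Null Cre share only 2 numbers. Calls gained or lost under a title-number block are given with each comparison. Other alternatives were no filter, genes above the median of all values, averaged probe sets, quantile normalization, the strain or Xist as a covariate, trended and robust variances, the compared arrays alone, and each array left out. Promoter windows came from RefSeq (GRCm38.p6).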

Additional observations from a re-analysis of the deposited data

Results flagged for a closer look

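Among 99 checks of the highest and the lowest array within groups of 4 to 10, 7 values, on 5 arrays, stood apart by Dixon's criterion, where chance gives about 5 percent of checks. Mvk, mevalonate kinase, was at 9.33 in 25,26 replicate 1, against 8.84 to 8.95 in the other 25,26 arrays, and at 9.33 in Null replicate 1, against 8.93 to 9.07 in the other Null arrays. Cyp51 was at 10.28 in Null replicate 2, below the other Null arrays (10.88 to 11.10). Insig2 was at 10.27 in WT replicate 4, above the other WT arrays (9.81 to 9.92). Acaca was at 9.84 in Null replicate 4, below the other Null arrays (10.07 to 10.15), and just above the highest WT array (9.83). The sterol branch mean of Null replicate 2 was -0.13, against 0.20 to 0.32 in the other Null arrays. The fatty acid branch mean of Null replicate 4 was 0.40, against 0.20 to 0.26 in the other Null arrays, although that array was lowest in Acaca.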

How the results depend on the processing

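No call of the 31 genes reversed in sign under any alternative run, and 288 counts of called genes stayed within 1.5 times while 78 did not. Alternatives chosen after seeing the data are named as added. Under the title number as a replicate block the sterol branch count was 3 for 25,26 against Null, 11 for 53,54 against Null, 3 for 25,26 against WT, 15 for QM against WT and 8 for LSL-WT Cre against Empty, the fatty acid count of the last was 6, and 3 genes differed between the parts; the block moved no other count by over 1.5 times. With the compared arrays alone the sterol count was 2 for QM against WT, 0 for LSL-WT and 7 for WT Cre against Null Cre, and the fatty acid count was 1, 4 and 0 for 25,26 against WT, QM against WT and LSL-WT. With Xist in the model the sterol count was 5 for 25,26 against WT and 5 for WT Cre against Null Cre. With the strain as a covariate it was 11 for 53,54 against Null, 2 for 25,26 against WT and 2 for LSL-WT. With the mean of probe sets it was 2 for 25,26 against WT and 2 for LSL-WT, and the fatty acid count for QM against WT was 4. With quantile normalization the sterol count was 0 for 25,26 against WT and 4 for QM against WT, and the fatty acid count for LSL-WT was 1. Without a filter the sterol count for 25,26 against WT was 0. Without the arrays of title number 2 (added) the sterol count was 1 for 25,26 against Null, 0 for 25,26 against WT and 2 for QM against WT, and the fatty acid count was 0 for 25,26 against WT, 2 for QM against WT and 0 for LSL-WT. With 1 array left out the sterol count ran between 12 and 15 for WT against Null, 0 and 1 for 25,26 against Null, 2 and 9 for 53,54 against Null, 0 and 4 for 25,26 against WT, 1 and 11 for QM against WT, 0 and 2 for LSL-WT and 7 and 13 for WT Cre against Null Cre. The fatty acid count ran between 7 and 8, 0 and 0, 3 and 7, 2 and 6, 4 and 8, 0 and 2, and 6 and 7 in the same order, and between 0 and 1 genes differed between the parts (1 without WT replicate 6). Beyond fewer arrays or another probe set, the cause was not tested. The WT against Null counts stayed within 1.5 times under every alternative run.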
